A study of Homo sapiens with 6 samples.

Results

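The genes described here build and fire the DNA replication machinery and drive cells from G1 into S phase. They are 55 genes picked by symbol from the 23228 genes counted in each library, and cover origin licensing, the replicative helicase, the fork enzymes, nucleotide supply, chromatin assembly, the E2F factors and the G1/S cyclins. The list was drawn up with earlier results of these data known, so its counts describe these data and are no independent test. All 55 were found by their exact symbols, and all 55 passed the filter on low counts. The cells were RL95-2, an established human endometrial carcinoma line, grown in RPMI with 10% FBS and then kept for 24 h in serum-free medium. In the 3 control samples this was RPMI and DMEM mixed 1:1, and in the 3 treated samples the DMEM was replaced by ADP-CM, DMEM conditioned by mature human adipocytes, so both groups lacked serum. The comparison asks what adipocyte-conditioned medium changes in the transcripts of these cells. What the adipocytes added to the medium and what they took from it cannot be told apart. RNA was read as stranded poly(A) libraries with 50 bp single reads, and the values are deposited read counts per gene. The results concern 1 cell line at 1 time point, and the labels do not say whether the replicates were separate cultures, so p-values measure only the spread between these samples.

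Before S phase, the origin recognition complex, CDC6 and CDT1 load the ring of MCM2 to MCM7 onto origins, and geminin keeps this from happening again in the same cycle. Cyclin E and cyclin A with CDK2 then turn the loaded ring into an active helicase with CDC45 and the GINS complex, and polymerases, the PCNA clamp and its loader copy the strands with deoxynucleotides made by ribonucleotide reductase, thymidylate synthase and thymidine kinase. Many of these genes are transcribed under E2F factors, which the retinoblastoma family holds back in G1. In bulk RNA, a smaller share of cells in S phase and less of these transcripts per cell cannot be told apart.

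Between 16262614 and 18363033 reads per library fell on genes, and the 55 genes had from 543 to 14749 reads each in a library. Reads were scaled with edgeR's TMM method to a common library total (CPM). All 8 epithelial markers passed the filter on low counts, 6 of them lower in ADP-CM and 1 higher, and their summed level was 4406 ± 45.7 CPM without and 3594 ± 27.8 CPM with ADP-CM (SD, n = 3). The adipocyte markers ADIPOQ, LEP, CIDEA and TUSC5 had no read in any library, and none of the 10 adipocyte markers had more than 11 reads in one. Of 7 leukocyte markers 2 passed the filter, CD68, which was higher in ADP-CM, and ITGAM, which was not called (log2 fold change -0.2). PTPRC had 1 read at most, and the summed level of the 7 was 9.13 ± 0.703 and 12.3 ± 1.24 CPM. Of 8 stromal markers 2 passed, COL1A1, which was higher, and COL3A1, which was not called (log2 fold change -0.01). THY1 had no read, and the 8 stood at 64.5 ± 3.53 and 78.8 ± 0.431 CPM in sum. Of 5 endothelial markers CDH5 passed, at 985 to 1127 reads, while KDR had none. The share of reads that lay on no gene was 10.3% ± 0.0551 in the control samples (SD, n = 3) and 11.5% ± 0.0321 in the treated ones (SD, n = 3). The part of these differences in the results below was not tested.

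ADP-CM lowered 24 of the 55 genes and raised none at an adjusted p under 0.01 in edgeR's quasi-likelihood test, where 13.0% of the 12663 tested genes were called lower and 13.5% higher. The 55 genes were chosen with earlier results of these data known. Without adjustment 1 gene, POLD1, was higher at p under 0.05 in the same edgeR test and 31 were lower. Of the 12663 tested genes, 2859 were higher and 2835 lower at that limit. DESeq2 also called 0 of the 55 genes higher at an adjusted p under 0.01, while it called 1124 of all 12663 tested genes higher. These genes are well expressed, and of the 6543 tested genes at or above the lowest control level among them, 17.8% were called lower. Of the 55 log2 fold changes, 48 were negative, with a median of -0.09 against -0.0023 over all tested genes. In 32 of the 55 genes all 3 ADP-CM libraries lay below all 3 control libraries, against 22.8% of tested genes. The changes were small. The 24 lowered genes had log2 fold changes between -0.60 and -0.09 and a median fall of 10.7%, and CCNE2 alone passed a fold change of 1.5, a limit that 1.14% of tested genes passed downwards. The summed level of the 55 genes was 9591, 9617 and 9659 CPM in the control and 8970, 8957 and 8973 CPM in the ADP-CM libraries.

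**Figure D1:**
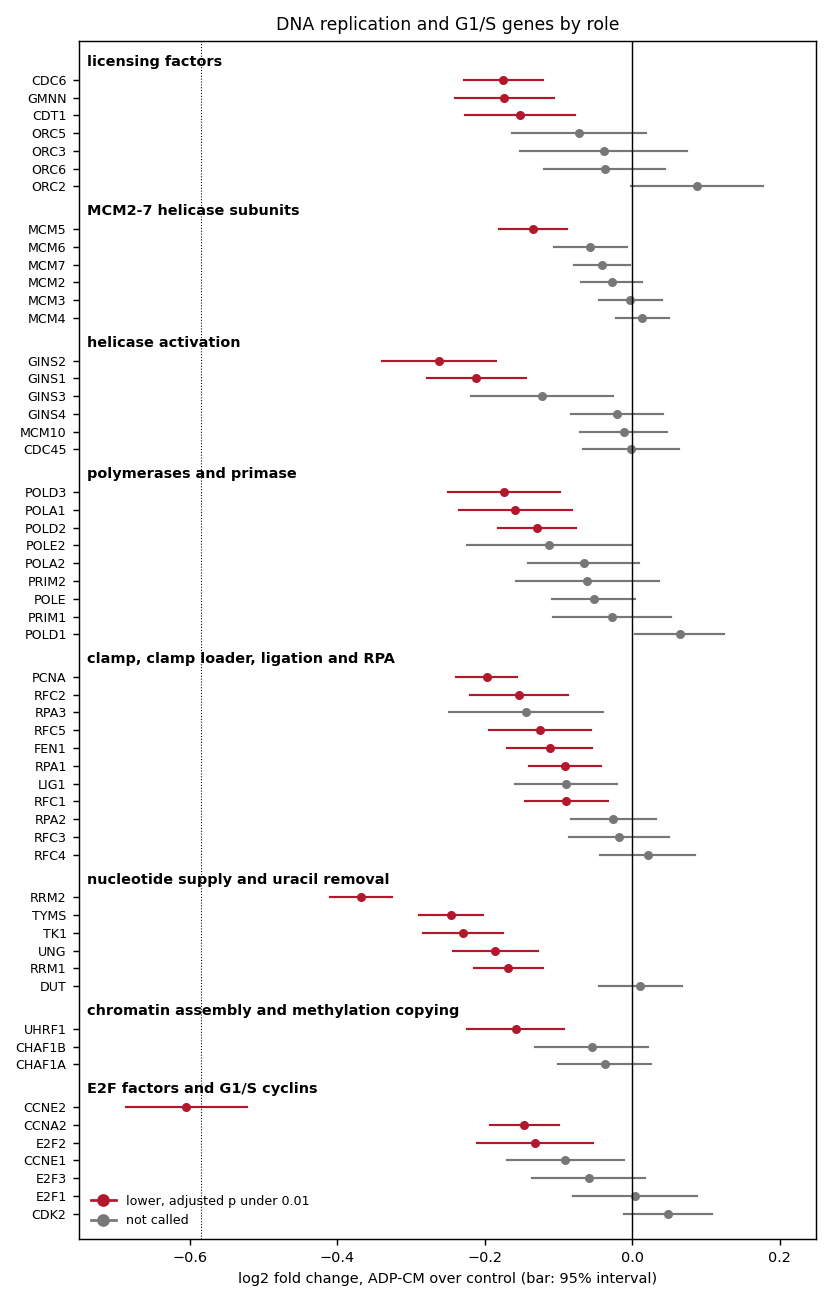
Log2 fold change of ADP-CM over control for each of the 55 genes (points) with its 95% interval (bars), grouped by role. Red genes were lower at an adjusted p under 0.01 (edgeR quasi-likelihood test), grey genes were not called, and the dotted line marks a 1.5-fold fall. The 24 red points all lie left of 0, with RRM2 and CCNE2 farthest left.

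**Figure D2:**
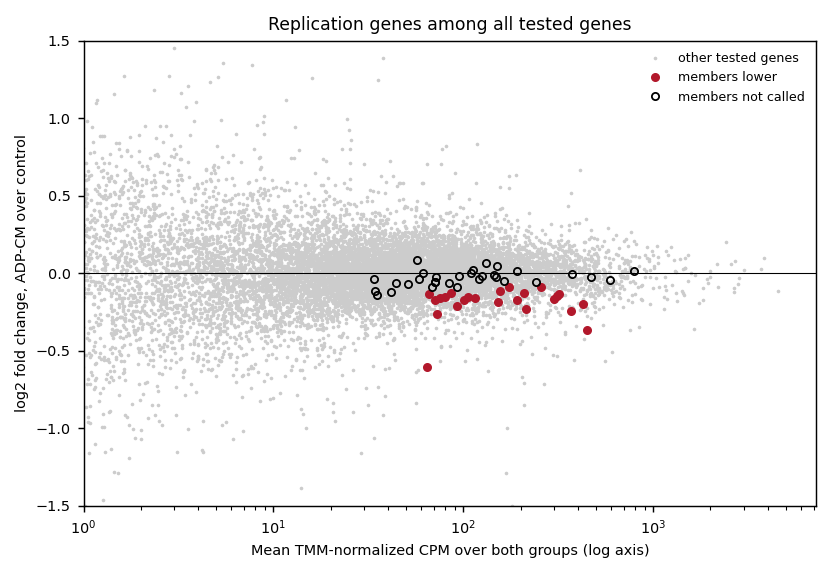
Log2 fold change of ADP-CM over control against the mean level (log axis, CPM) for all tested genes (grey) and the 55 genes (red filled, lower; black open, not called). Not drawn are 535 other genes below 1 CPM or beyond a log2 fold change of 1.5. The red points sit in the lower part of the grey cloud at their level, and CCNE2 and RRM2 are the lowest of them.

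The roles moved by different amounts. The summed level of the nucleotide supply and uracil removal genes fell by 14.6%, from 1805 ± 7.61 to 1542 ± 4.82 CPM (SD, n = 3), while that of the MCM2 to MCM7 subunits fell by 2.05%, from 2821 ± 12.6 to 2763 ± 10.2 CPM (SD, n = 3). Between these, the E2F factors and G1/S cyclins fell by 7.99%, the licensing factors fell by 7.59%, the clamp, loader, ligation and RPA genes fell by 7.26%, chromatin assembly fell by 5.83%, helicase activation fell by 5.52% and the polymerases and primase fell by 4.99%. In every role the 3 ADP-CM sums lay below the 3 control sums. These sums follow the most abundant genes of each role, and neither the sums nor the differences between roles were tested.

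**Figure D3:**
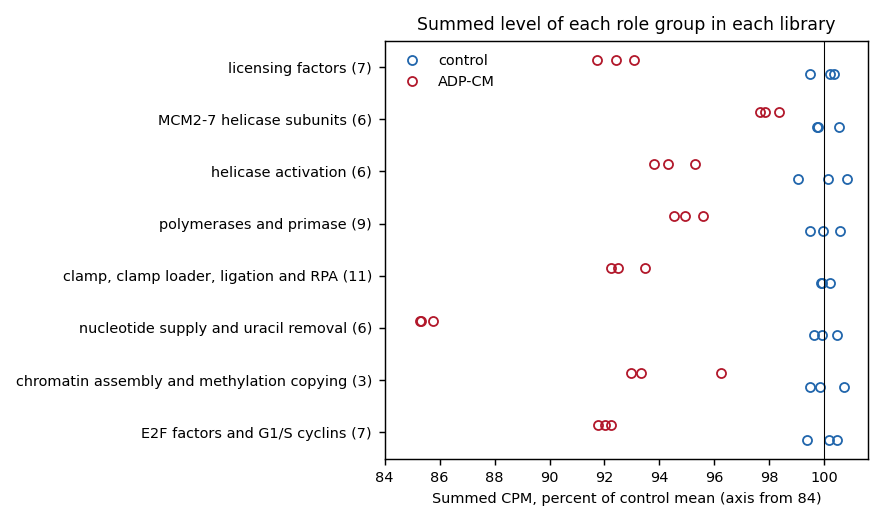
Summed CPM of each role's genes in each library, as a percent of the mean of the 3 control libraries (blue, control; red, ADP-CM; number of genes in brackets). The axis starts at 84%. The ADP-CM libraries lie nearest the control in the MCM2 to MCM7 subunits and farthest from it in the nucleotide supply genes.

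The promoters of these genes were searched for E2F motifs and for the letters CCAAT. The genes were not picked by promoter sequence. Many are of a kind known to be transcribed under E2F factors, so the choice was not independent of the E2F motif. RefSeq promoters, 250 bases before to 50 after each gene's start (GRCh38.p14), were at hand for 47 of the 55 genes, and not for MCM4, MCM5, GINS4, POLD3, RPA2, RPA3, CCNE2 and CDK2. An E2F motif, TTTCCCGC, TTTGGCGC, TTTCGCGC or TTTGCCGC on either strand, was in 22 of the 47 (46.8%), against 3.31% of all 35116 promoters of that length and 5.44% of those of 8807 tested genes. Matches of these words can overlap each other, and a promoter was counted once. The letters CCAAT, on either strand, were in 27 of the 47 (57.4%), against 34.6% of all promoters and 37% of those of tested genes. The E2F motif was in 9 of the 21 lowered genes with a promoter and in 13 of the 26 that were not called. All 4 matched MCM2 to MCM7 promoters held it, and 1 of the 6 nucleotide supply promoters did. A match says only that these letters are there, and the lack of one does not show that the promoter holds no E2F site. The 250 bases before the start are printed for TYMS, PCNA and GINS2, the 3 lowered genes with the smallest p-values and an E2F match, and for RRM2, the lowered gene with a promoter and the smallest p-value, which has no E2F match. TYMS lies at chr18:657403-657652 on the plus strand, PCNA at chr20:5126623-5126872 on the minus strand, GINS2 at chr16:85688955-85689204 on the minus strand and RRM2 at chr2:10122489-10122738 on the plus strand. Capitals mark the E2F motif, which is TTTCCCGC on the opposite strand and so printed as GCGGGAAA, and the CCAAT letters or their reverse complement ATTGG.
TYMS: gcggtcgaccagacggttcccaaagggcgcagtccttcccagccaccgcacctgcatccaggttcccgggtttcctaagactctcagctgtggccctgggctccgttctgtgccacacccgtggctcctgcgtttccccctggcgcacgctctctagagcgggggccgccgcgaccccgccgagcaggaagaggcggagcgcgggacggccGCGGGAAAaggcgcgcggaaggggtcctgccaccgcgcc
PCNA: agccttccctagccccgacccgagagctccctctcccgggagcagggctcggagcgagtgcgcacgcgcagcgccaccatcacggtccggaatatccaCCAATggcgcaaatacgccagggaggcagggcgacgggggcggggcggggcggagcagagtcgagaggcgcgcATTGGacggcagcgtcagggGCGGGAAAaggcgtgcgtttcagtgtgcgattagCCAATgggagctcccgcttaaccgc
GINS2: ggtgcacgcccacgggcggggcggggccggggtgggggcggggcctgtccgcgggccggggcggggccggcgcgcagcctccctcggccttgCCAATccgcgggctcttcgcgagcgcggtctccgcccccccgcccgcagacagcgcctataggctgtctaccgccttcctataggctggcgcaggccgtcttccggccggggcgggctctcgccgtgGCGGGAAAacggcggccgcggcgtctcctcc
RRM2: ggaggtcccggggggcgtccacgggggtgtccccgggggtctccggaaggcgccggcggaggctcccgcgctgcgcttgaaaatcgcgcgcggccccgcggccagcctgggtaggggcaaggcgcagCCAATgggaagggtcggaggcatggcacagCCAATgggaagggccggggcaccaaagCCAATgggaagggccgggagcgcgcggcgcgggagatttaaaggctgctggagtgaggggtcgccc
The E2F match begins 39 bases before the start in TYMS, 59 in PCNA and 31 in GINS2. These are RefSeq's starts, which may differ from those of the canonical transcripts whose GRCh37 positions are given for these genes. RRM2 holds CCAAT at 123, 93 and 66 bases before its start, PCNA holds 3 matches, GINS2 holds 1 and TYMS none.

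The nucleotide supply genes held the clearest falls, with 5 of 6 lowered and a median log2 fold change of -0.21. RRM2 (GRCh37, chromosome 2, 10262866 to 10271541), the small subunit of ribonucleotide reductase whose abundance limits the enzyme in S phase, stood at 496, 512 and 499 CPM in control replicates 1 to 3 and 391, 393 and 384 CPM in ADP-CM replicates 1 to 3. No ADP-CM library came within 100 CPM of a control library. RRM2 fell by 22.5% (95% interval -24.7% to -20.2%, log2 fold change -0.37, standard error 0.0210, edgeR quasi-likelihood test, adjusted p = 2.83e-23), the smallest p-value among the 55 genes. TYMS (GRCh37, chromosome 18, 657653 to 673578), which makes dTMP from dUMP, stood at 401, 393 and 406 CPM in control and 340.4, 337 and 336 CPM in ADP-CM. The groups were again far apart, and TYMS fell by 15.7% (log2 fold change -0.25, standard error 0.0218, edgeR quasi-likelihood test, adjusted p = 9.84e-15). In the annotation 66.5% of its exonic bases lie opposite ENOSF1 and TYMSOS, and since the strand setting of the counting was not stated, reads of these genes cannot be told apart there. ENOSF1 itself was counted at 41.2 ± 1.49 CPM without and 45.3 ± 1.57 CPM with ADP-CM (SD, n = 3). TK1 (GRCh37, chromosome 17, 76170172 to 76183133), which salvages thymidine, stood at 234, 222 and 234 CPM in control and 195, 189 and 204 CPM in ADP-CM. Its highest ADP-CM library lay below its lowest control library, and it fell by 14.7% (log2 fold change -0.23, standard error 0.0273, edgeR quasi-likelihood test, adjusted p = 2.59e-10).
RRM1, the large subunit of ribonucleotide reductase, and UNG, which removes uracil from DNA, fell by 11.0% and fell by 12.1%, with log2 fold changes of -0.17 and -0.19. DUT, the dUTPase that supplies dUMP to TYMS, was the exception at 191 ± 8.73 CPM (SD, n = 3) without and 192 ± 2.84 CPM (SD, n = 3) with ADP-CM. Its groups overlapped, and the 95% interval of its change, -3.06% to 4.77%, leaves out a fall as large as that of the other 5. Opposite DUT-AS1 lie 17.1% of its exonic bases, where reads of both genes cannot be told apart without the strand setting. DUT has 8 annotated pseudogenes of its name, RRM2 has 3 and TYMS and UNG have 2 each, and reads that fit more than 1 place were not counted. The ratio of RRM2 to RRM1 was 1.53, 1.62 and 1.57 in the control and 1.37, 1.35 and 1.39 in the ADP-CM libraries, chosen for comparison after the values were seen. The groups did not overlap, and the exact two-sided permutation test gave p = 0.10, the smallest that 3 libraries against 3 allow (0.10 after Benjamini-Hochberg adjustment over 2 ratios). With the pair chosen after its values were seen, this p-value decides nothing about the ratio.

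**Figure D4:**
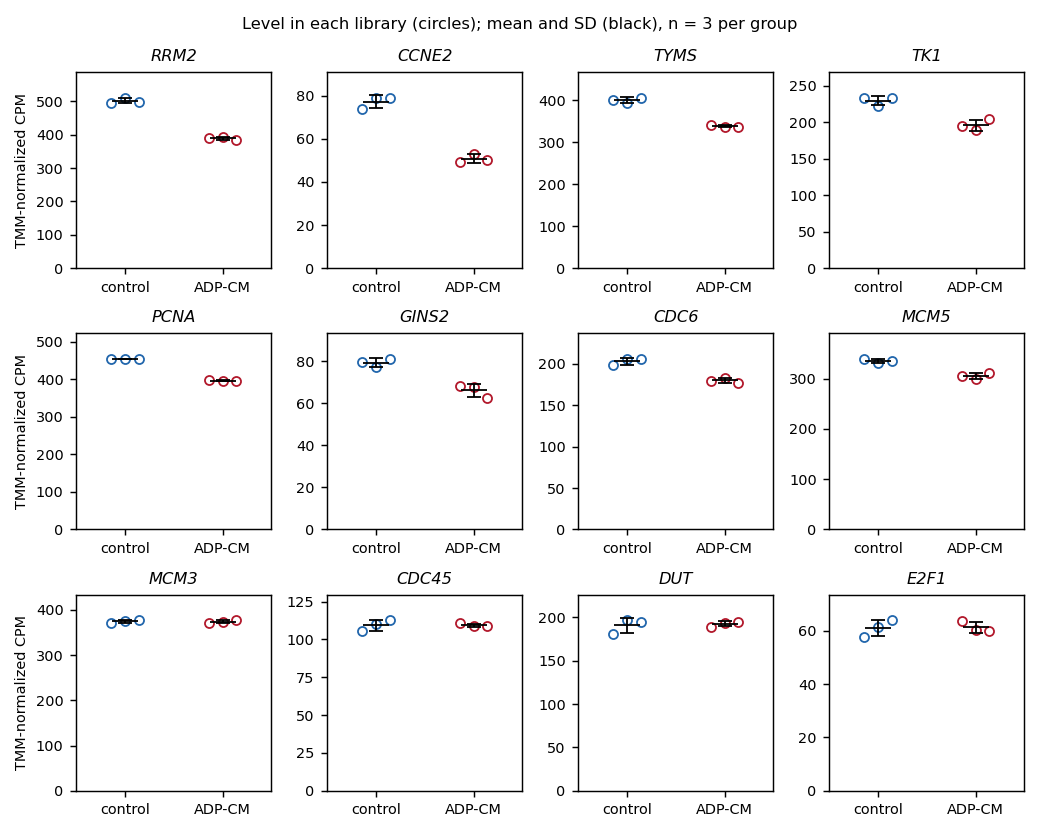
Level of 12 of the genes in each library (circles, TMM-normalized CPM from 0, blue for control and red for ADP-CM) with the mean and SD of each group (black, n = 3). The upper 8 genes, RRM2 to MCM5, are lowered and their groups do not overlap, while MCM3, CDC45, DUT and E2F1 overlap between the groups.

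Among the E2F factors and G1/S cyclins 3 of 7 genes were lowered. CCNE2, the second of the cyclin E genes that activate CDK2 at the start of S phase, stood at 73.7, 79.1 and 78.8 CPM in control replicates 1 to 3 and 49.3, 52.9 and 50.2 CPM in ADP-CM replicates 1 to 3. Every ADP-CM library was more than 20 CPM below every control library. CCNE2 fell by 34.2% (95% interval -37.9% to -30.4%, log2 fold change -0.60, standard error 0.0410, edgeR quasi-likelihood test, adjusted p = 1.10e-19), the largest fall among the 55 genes. In the annotation 57.1% of its exonic bases lie opposite INTS8 and an unnamed gene, and INTS8 was counted at 145.5 ± 1.44 CPM without and 145.7 ± 0.456 CPM with ADP-CM (SD, n = 3). CCNE1, the other cyclin E gene, stood at 71.6, 71.4 and 67.7 CPM in control and 67.5, 63.0 and 67.4 CPM in ADP-CM. Its ADP-CM libraries were the lower ones by a small margin, and its change of -6.08% (95% interval -11.1% to -0.800%) did not pass (edgeR quasi-likelihood test, adjusted p = 0.0645). The ratio of CCNE2 to CCNE1 was 1.03, 1.11 and 1.16 in the control and 0.73, 0.841 and 0.745 in the ADP-CM libraries. This was the second of the 2 ratios compared, and the pair was also chosen after the values were seen. The exact two-sided permutation test gave p = 0.10, again the smallest possible, and with the pair chosen that way it decides nothing.
CCNA2, the cyclin A of S phase and G2, stood at 320.1, 324 and 336 CPM in control and 294, 301 and 291 CPM in ADP-CM. The groups did not overlap, and CCNA2 fell by 9.63% (log2 fold change -0.15, standard error 0.0233, edgeR quasi-likelihood test, adjusted p = 5.96e-07). E2F2, an activator of S phase genes, stood at 71.2, 69.2 and 65.7 CPM in control and 63.2, 61.9 and 62.8 CPM in ADP-CM. Control replicate 3 was the control library nearest to the ADP-CM libraries, and E2F2 fell by 8.71% (log2 fold change -0.13, standard error 0.0396, edgeR quasi-likelihood test, adjusted p = 0.00628). Its adjusted p in edgeR's quasi-likelihood test and DESeq2 ran from 0.00323 to 0.0637 over the 13 alternative fits, and the call was lost with DESeq2 and when any 1 of control replicates 1 and 2 and ADP-CM replicates 1 and 2 was left out. The other activators were not called, with E2F1 at 61.1 ± 3.10 CPM (SD, n = 3) without and 61.3 ± 2.00 CPM (SD, n = 3) with ADP-CM and E2F3 at 72.5 ± 2.98 CPM (SD, n = 3) without and 69.5 ± 0.770 CPM (SD, n = 3) with ADP-CM. CDK2, the kinase partner of cyclins E and A, was at 148 ± 2.91 CPM (SD, n = 3) without and 153 ± 4.93 CPM (SD, n = 3) with ADP-CM and was not called either (edgeR quasi-likelihood test, adjusted p = 0.201), with 16.8% of its exonic bases opposite PMEL and an unnamed gene.

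Of the 7 origin licensing genes 3 were lowered, the loading factors CDC6 and CDT1 and their inhibitor GMNN. The 4 subunits of the origin recognition complex among the 55 genes were not called, and the difference in change between them and the 3 lowered genes was not tested. CDC6 (GRCh37, chromosome 17, 38444131 to 38460909), the ATPase that recruits the MCM ring with CDT1, stood at 198, 206 and 205 CPM in control replicates 1 to 3 and 179.7, 183 and 177 CPM in ADP-CM replicates 1 to 3. The groups were at least 10 CPM apart, and CDC6 fell by 11.4% (log2 fold change -0.17, standard error 0.0268, edgeR quasi-likelihood test, adjusted p = 2.37e-07). GMNN, geminin, which binds CDT1 and blocks a second licensing, stood at 108, 107 and 106 CPM in control and 98.9, 92.5 and 93.3 CPM in ADP-CM. All ADP-CM libraries were below all control libraries, and GMNN fell by 11.3% (log2 fold change -0.17, standard error 0.0336, edgeR quasi-likelihood test, adjusted p = 2.49e-05). CDT1, the partner that geminin binds, stood at 85.9, 84.8 and 83.2 CPM in control and 77.5, 71.6 and 79.4 CPM in ADP-CM. ADP-CM replicate 2 was the lowest of its libraries, and CDT1 fell by 10.0% (log2 fold change -0.15, standard error 0.0374, edgeR quasi-likelihood test, adjusted p = 7.88e-04), a call that was lost without that library, where the adjusted p in the same edgeR test was 0.0195, and with DESeq2. Of the origin recognition subunits, ORC5, ORC3 and ORC6 had log2 fold changes of -0.07, -0.04 and -0.04, and ORC2, at 52.4, 57.8 and 56.4 CPM in control and 56.0, 63.2 and 58.0 CPM in ADP-CM, had 0.09. ORC2 had the highest fold change of the 55, its groups overlapped, and its 95% interval ran from -0.0800% to 13.1%. ORC1 and ORC4, subunits outside the 55 genes and named after their values were seen, were not called either, but ORC1 stood at 79.7, 80.3 and 82.5 CPM in control and 69.8, 75.5 and 78.8 CPM in ADP-CM, without overlap (log2 fold change -0.11, edgeR quasi-likelihood test, adjusted p = 0.0154). ORC4 had a log2 fold change of -0.015 with overlapping groups (edgeR quasi-likelihood test, adjusted p = 0.829).

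The MCM2 to MCM7 ring, the core of the replicative helicase, had 1 lowered gene of 6 and the smallest fall of a summed level among the 8 roles. Per kilobase of transcript, control levels ran from 65.4 CPM for MCM6 and 96.8 for MCM5 through 122 for MCM3, 138 for MCM2 and 194 for MCM4 to 244 for MCM7, although the subunits occur in equal numbers in the ring. MCM5 (GRCh37, chromosome 22, 35796133 to 35821424) was the lowered one. It stood at 339, 331 and 334 CPM in control and 304, 299 and 312 CPM in ADP-CM. The groups did not overlap, and MCM5 fell by 8.88% (log2 fold change -0.13, standard error 0.0229, edgeR quasi-likelihood test, adjusted p = 2.44e-06). MCM6 and MCM7 also had all ADP-CM libraries below all control libraries, with log2 fold changes of -0.06 and -0.04, but were not called (edgeR quasi-likelihood test, adjusted p = 0.0627 and 0.0884). MCM2, MCM3 and MCM4 overlapped between the groups. The 95% intervals of the change were -4.66% to 0.950% for MCM2, -3.09% to 2.87% for MCM3 and -1.55% to 3.57% for MCM4, so at this depth a change of over 5% in either direction lay outside each of them. Of the exonic bases of MCM2, 32.4% lie opposite an unnamed gene, so with the strand setting unknown its counts are uncertain.

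Of the 6 helicase activation genes GINS2 and GINS1 were lowered. GINS2 (GRCh37, chromosome 16, 85709804 to 85722560), a subunit of the 4-part GINS complex that joins CDC45 and the MCM ring, stood at 79.5, 77.0 and 81.1 CPM in control replicates 1 to 3 and 68.1, 67.7 and 62.5 CPM in ADP-CM replicates 1 to 3. ADP-CM replicate 3 was the lowest library, the other two lay close together, and GINS2 fell by 16.6% (log2 fold change -0.26, standard error 0.0387, edgeR quasi-likelihood test, adjusted p = 1.00e-07). GINS1 (GRCh37, chromosome 20, 25388309 to 25429199) stood at 97.9, 101 and 99.9 CPM in control and 85.8, 86.3 and 86.2 CPM in ADP-CM. Its ADP-CM libraries lay within 1 CPM of each other and below every control library, and it fell by 13.6% (log2 fold change -0.21, standard error 0.0338, edgeR quasi-likelihood test, adjusted p = 6.08e-07). GINS3 had a log2 fold change of -0.12, with groups that did not overlap, but did not pass (edgeR quasi-likelihood test, adjusted p = 0.0381), and 14.4% of its exonic bases lie opposite an unnamed gene. GINS4 was at 126 ± 1.02 CPM (SD, n = 3) without and 124 ± 4.31 CPM (SD, n = 3) with ADP-CM, where 33.4% of its exonic bases lie opposite other genes, and its groups overlapped. CDC45 and MCM10, which help to activate the helicase, also overlapped, with log2 fold changes of -0.0019 and -0.01 and 95% intervals of -4.54% to 4.47% and -4.78% to 3.37%. The difference in change between GINS subunits was not tested.

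Of the 9 polymerase and primase genes 3 were lowered, POLD2, POLD3 and POLA1. POLD2 (GRCh37, chromosome 7, 44154279 to 44163147), an accessory subunit of the lagging strand polymerase delta, stood at 216, 216 and 222 CPM in control and 201, 193 and 205 CPM in ADP-CM. POLD3, another of its accessory subunits, stood at 75.7, 77.5 and 73.3 CPM in control and 66.1, 67.0 and 67.6 CPM in ADP-CM. Neither gene overlapped between the groups, and they fell by 8.53% and 11.4% (edgeR quasi-likelihood test, adjusted p = 6.95e-05 and 1.62e-04). POLD1, the catalytic subunit of the same enzyme, had all 3 ADP-CM libraries above the control, at 128 ± 1.16 CPM (SD, n = 3) without and 134 ± 3.15 CPM (SD, n = 3) with ADP-CM, but was not called (log2 fold change 0.06, edgeR quasi-likelihood test, adjusted p = 0.0883), and 12.4% of its exonic bases are shared with another annotated gene. POLA1, the catalytic subunit of polymerase alpha, which starts each new strand with primase, stood at 77.1, 84.2 and 77.6 CPM in control and 72.6, 72.5 and 68.9 CPM in ADP-CM. Control replicate 2 was the highest library, and POLA1 fell by 10.4% (log2 fold change -0.16, standard error 0.0384, edgeR quasi-likelihood test, adjusted p = 6.73e-04), a call lost without that library and with DESeq2. Its partners POLA2, PRIM1 and PRIM2 had log2 fold changes of -0.07, -0.03 and -0.06 and were not called, and 55.8%, 28.9% and 54.0% of their exonic bases are shared with another gene on the same strand, which makes their counts uncertain. POLE and POLE2 of the leading strand polymerase epsilon had log2 fold changes of -0.05 and -0.11 and were not called either.

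The clamp, its loader, ligation and RPA genes held 6 lowered genes of 11. PCNA (GRCh37, chromosome 20, 5095599 to 5100604), the sliding clamp that tethers the polymerases, was the most abundant of the 55 genes per kilobase of transcript, at 356 CPM per kilobase in control. It stood at 455, 454 and 455 CPM in control replicates 1 to 3 and 397, 397 and 395 CPM in ADP-CM replicates 1 to 3. Within each group the libraries lay within 2 CPM of each other and the groups were over 50 CPM apart. PCNA fell by 12.8% (95% interval -15.2% to -10.2%, log2 fold change -0.20, standard error 0.0207, edgeR quasi-likelihood test, adjusted p = 4.35e-12). FEN1, which cuts the flaps of Okazaki fragments, stood at 161, 161 and 162 CPM in control and 153, 146 and 149.6 CPM in ADP-CM. The groups did not overlap, and FEN1 fell by 7.47% (log2 fold change -0.11, standard error 0.0286, edgeR quasi-likelihood test, adjusted p = 0.00125). RFC2, a small subunit of the clamp loader RFC, stood at 115, 110.1 and 111 CPM in control and 102, 97.4 and 102 CPM in ADP-CM. All ADP-CM libraries were the lower ones, and RFC2 fell by 10.1% (log2 fold change -0.15, standard error 0.0330, edgeR quasi-likelihood test, adjusted p = 1.38e-04).
Of the other loader subunits RFC5 fell by 8.31% and RFC1 fell by 6.02%, and RFC3 and RFC4 were not called, with log2 fold changes of -0.02 and 0.02. The calls of RFC1 and RFC5 were lost in 6 and 5 of the alternative fits, with adjusted p-values up to 0.132 and 0.0261 over all 13 such fits in edgeR and DESeq2. Both were lost with DESeq2 and when control replicate 2 or 3 or ADP-CM replicate 1 was left out, RFC5 also without ADP-CM replicate 2, and RFC1 also without ADP-CM replicate 3 and with plain library sizes. RPA1, the large subunit of the complex that coats single-stranded DNA, fell by 6.10%, a call lost without control replicate 1 or 3, where the adjusted p in edgeR's quasi-likelihood test reached 0.0205. RPA3, LIG1 and RPA2 had log2 fold changes of -0.14, -0.09 and -0.03 and were not called (edgeR quasi-likelihood test, adjusted p = 0.0246, 0.0345 and 0.517). LIG1 joins the fragments that FEN1 has trimmed.

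Of the 3 genes that rebuild chromatin behind the fork, UHRF1, which brings the maintenance methyltransferase to newly copied DNA, was lowered. It stood at 119.2, 124 and 119.8 CPM in control and 107, 104 and 114 CPM in ADP-CM. ADP-CM replicate 3 was the ADP-CM library nearest to the control, the groups did not overlap, and UHRF1 fell by 10.4% (log2 fold change -0.16, standard error 0.0332, edgeR quasi-likelihood test, adjusted p = 9.49e-05). CHAF1A and CHAF1B, subunits of the histone chaperone CAF-1, had log2 fold changes of -0.04 and -0.05 with overlapping groups.

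Other genes of the same processes were listed by role, with earlier results of these data known, so the lists are not independent of those results. Their counts stand against 13.0% of all tested genes called lower and 13.5% called higher. Of 42 further replication and S phase genes, all tested, 13 were lowered (31.0%) and 3 raised (7.14%) by the same edgeR test, and the median of their log2 fold changes was -0.04. Among the lowered genes were ASF1B, a histone chaperone, and DONSON, a replication factor. ASF1B went from 150.3 ± 4.20 CPM to 129 ± 5.02 CPM (SD over 3 libraries, log2 fold change -0.22, edgeR quasi-likelihood test, adjusted p = 3.27e-08) and DONSON from 87.1 ± 2.01 CPM to 73.0 ± 1.76 CPM (SD over 3 libraries, log2 fold change -0.25, edgeR quasi-likelihood test, adjusted p = 4.03e-08). The raised genes were RECQL4, DCTPP1 and CHTF18, with log2 fold changes of 0.15, 0.11 and 0.12. Of 18 further E2F, pocket protein and S phase entry genes 4 were lowered (22.2%) and 2 raised (11.1%). LIN54, the DNA-binding subunit of the DREAM and MuvB complexes, went from 99.1 ± 2.67 CPM to 71.4 ± 0.520 CPM (SD over 3 libraries, log2 fold change -0.47, edgeR quasi-likelihood test, adjusted p = 7.74e-18). MYBL2, a partner of MuvB, and E2F7, a repressor of E2F targets, had log2 fold changes of -0.19 and -0.20. The raised ones were E2F5 and E2F4, which repress with pocket proteins, at 0.26 and 0.12. Of 30 mitotic genes, which act after S phase, 16 were lowered (53.3%) and 14 were not called, and the median of their log2 fold changes was -0.10. Among them KIF20A, NDC80 and ANLN had the smallest p-values, with log2 fold changes of -0.17, -0.21 and -0.11.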

How the data were processed

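The authors sequenced 3 control and 3 ADP-CM samples of RL95-2 cells, mapped the reads on hg19 by TopHat2, and counted them over RefSeq genes by HTSeq. The deposited values are raw counts per gene for each library. Program versions and the strand setting are not given in the sources used here. The tallies of reads on no gene (10.3% of the control and 11.5% of the ADP-CM total on average), of ambiguous reads (0.719% and 0.714%) and of reads without a unique alignment (20.5% and 20.7%) entered neither the library sizes nor any test.

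In R 4.3.3 with edgeR 4.0.16, 12663 of 23228 genes passed filterByExpr, counts were scaled by TMM, and ADP-CM was tested against control with quasi-likelihood fits, p-values being adjusted by Benjamini-Hochberg over all tested genes. The same code had been tried on simulated counts. The changes put into these were larger than those of most of the lowered genes, so the trial does not bear on calls at such small changes. Calls needed an adjusted p under 0.01. The standard error is the size of the log2 fold change over the root of F. The study's fold limit of 1.5 was an alternative, as were DESeq2 1.42.0, other scalings and filters, a robust fit, the replicate number as a block, an adjusted p under 0.05 and each library left out. The common biological coefficient of variation was 1.67%. The correlations of same-numbered libraries' deviations were small and do not settle whether these were paired. Positions, lengths and exon overlaps are those of the canonical transcript in GENCODE release 44 on GRCh37, and promoters are RefSeq's. The members and lists were chosen with earlier results of these data known. All 55 genes could be named. Full statistics were given for up to 3 called genes of each role with the smallest p-values, and up to 3 genes were named of each other list. Beside these, all raised genes of the 2 further replication and E2F lists were named after their values were seen, as were other genes where the text says so. One gene that the rule names is not reported here.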

Additional observations from a re-analysis of the deposited data

Results flagged for a closer look

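Reads that lay on no gene, which enter no comparison, made up a larger share of the ADP-CM libraries than of the control libraries, 11.57%, 11.56% and 11.51% (mean 11.5%) against 10.20%, 10.26% and 10.31%. The groups did not overlap, and the part of this difference in the falls of the replication genes was not tested.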

How the results depend on the processing

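The number of lowered genes among the 55 was 24 in the main fit, where 13.0% of all tested genes were called lower. It was also 24 with DESeq2's size factors (12.9% of all tested genes) and with no filter on low counts (9.83%). With at least 10 counts in every library (13.6%) and with a robust fit (13.4%) it was 24 too. It was 23 with plain library sizes (12.5%) and 19 with the DESeq2 test (8.02%). At an adjusted p under 0.05 it was 27, for which the share over all tested genes is not given here. It dropped to 1, CCNE2, with a fold change over 1.5 (1.14%). Leaving out each library in turn gave 20 to 23 lowered genes, all among the 24, where 10% to 12.3% of all tested genes were called lower. The medians of the members' log2 fold changes then ran from -0.0984 to -0.0775. With the replicate block (13.6%) the count was 24, the same 24 genes, with a median of -0.0901. Same-numbered libraries deviated together with correlations of 0.0726, 0.0141 and 0.0973, none over 0.1. Those of replicates 1 and 3 were the highest of all pairs, while ADP-CM replicate 2 correlated best with control replicate 1. Pairs of unlike number ran from -0.0928 to 0.0261. Correlations this small cannot settle whether same-numbered libraries were paired. No setting called any of the 55 genes higher. Of the 24 genes, 18 were called in all 13 alternative fits, and CDT1, POLA1, RFC1, RFC5, RPA1 and E2F2 were not. Genes near 0 that were never called changed sign, and the cause was not tested: with plain library sizes MCM3 (log2 fold change 0.0008) and CDC45 (0.0011), and, over the fits that leave out 1 library, ORC3 (-0.0925 to 0.0318), MCM3 (-0.0106 to 0.0036), MCM10 (-0.0310 to 0.0069), CDC45 (-0.0269 to 0.0204), GINS4 (-0.0463 to 0.0028), PRIM1 (-0.0614 to 0.0258), DUT (-0.0261 to 0.0326) and E2F1 (-0.0341 to 0.0385). Depth and spread allowed calls at falls near 6% for well expressed genes, while for ORC3, among the least expressed, the 95% interval ran from -9.99% to 5.30%.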

Other observations

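Of the 11 cyclin D and CDK inhibitor genes, which act upstream of the E2F factors in G1, 6 were lowered (54.5%) by the same edgeR quasi-likelihood test, against 13.0% of all tested genes. The 2 genes raised make up 18.2%, near the 13.5% over all tested genes. CDKN2C, an inhibitor of CDK4 and CDK6, went from 38.6 ± 1.17 CPM to 23.1 ± 0.341 CPM (SD over 3 libraries, log2 fold change -0.74, edgeR quasi-likelihood test, adjusted p = 1.00e-17). CCND2 and CDK6, the genes raised, went from 649.6 ± 6.97 CPM to 749.5 ± 22.4 CPM (SD over 3 libraries, log2 fold change 0.21, edgeR quasi-likelihood test, adjusted p = 1.62e-13) and from 160.3 ± 4.90 CPM to 196 ± 6.24 CPM (SD over 3 libraries, log2 fold change 0.29, edgeR quasi-likelihood test, adjusted p = 2.94e-13). The other lowered genes are named after their values were seen. Among these, the CDK2 inhibitor genes CDKN1A and CDKN1B had log2 fold changes of -0.38 and -0.29. CDKN2D had -0.54, and the cyclin D genes CCND1 and CCND3 had -0.07 and -0.15, opposite in direction to CCND2.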
